A study of Homo sapiens with 18 samples.

Results

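The genes of propionyl-CoA metabolism were followed in A549 cells given sodium propionate (SP). The set holds 10 genes, ACSS1, ACSS2, ACSS3, PCCA, PCCB, MCEE, MMUT, MMAA, MMAB and ALDH6A1, of 61541 genes listed in the count tables. They were chosen for their known place in the pathway, with earlier results of these data known. They were matched by gene symbol to the Ensembl identifiers of the tables through the GENCODE v44 annotation. A549 is a human lung adenocarcinoma line, entered in the labels as wild type. RNA was sequenced from untreated cells at 24 h (Control 24 h), cells in 5 mM SP for 3 h (SP 3 h) or 24 h (SP 24 h), untreated cells at 3 days (Control 3 days), and cells in 5 mM SP for 3 days (SP 3 days) or 12 days (SP 12 days). Each group has 3 libraries, and each experiment has its own table of raw read counts. There is no untreated group at 3 h or at 12 days, so in those comparisons the length of culture and SP cannot be told apart. A single cell line was used, and RNA was measured in bulk, so less RNA per cell and fewer cells making a transcript cannot be told apart.

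Propionate enters metabolism as propionyl-CoA, made by short-chain acyl-CoA synthetases. In mitochondria the biotin enzyme propionyl-CoA carboxylase (subunits PCCA and PCCB) turns it into methylmalonyl-CoA, the epimerase MCEE converts its stereoisomer, and the mutase MMUT makes succinyl-CoA, which joins the tricarboxylic acid cycle. The mutase needs adenosylcobalamin, which MMAB makes and MMAA helps to load. Propionyl-CoA also arises from valine and thymine through ALDH6A1 (methylmalonate semialdehyde dehydrogenase), and from isoleucine, threonine, methionine and odd-chain fatty acids. Inherited loss of the carboxylase, the mutase or its cofactor supply causes propionic or methylmalonic acidemia.

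The results turned on ACSS2, ALDH6A1 and MMAB, and their promoters are shown with the letters searched. Each window runs from 250 bases before to 50 bases after the transcription start in RefSeq (GRCh38.p14). Capitals mark CCAAT (or its reverse complement ATTGG), the letters of the CCAAT box, and GGGCGG (or CCGCCC), the letters of the GC box.
MMAB (chr12:109573455-109573754, minus strand): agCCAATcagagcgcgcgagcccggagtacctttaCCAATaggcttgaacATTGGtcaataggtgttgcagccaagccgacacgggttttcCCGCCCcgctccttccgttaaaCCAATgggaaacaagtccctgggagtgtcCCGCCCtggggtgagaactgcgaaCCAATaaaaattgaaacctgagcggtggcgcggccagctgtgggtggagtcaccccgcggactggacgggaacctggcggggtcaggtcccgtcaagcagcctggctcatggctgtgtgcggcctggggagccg
ALDH6A1 (chr14:74084404-74084703, minus strand): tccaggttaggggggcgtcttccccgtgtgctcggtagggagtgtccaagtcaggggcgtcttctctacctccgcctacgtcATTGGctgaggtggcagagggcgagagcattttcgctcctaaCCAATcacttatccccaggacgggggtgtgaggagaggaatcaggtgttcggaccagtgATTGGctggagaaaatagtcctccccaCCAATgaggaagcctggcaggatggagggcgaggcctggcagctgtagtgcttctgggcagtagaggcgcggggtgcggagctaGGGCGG
ACSS2 (chr20:34876362-34876661, plus strand, the downstream of its 2 entries): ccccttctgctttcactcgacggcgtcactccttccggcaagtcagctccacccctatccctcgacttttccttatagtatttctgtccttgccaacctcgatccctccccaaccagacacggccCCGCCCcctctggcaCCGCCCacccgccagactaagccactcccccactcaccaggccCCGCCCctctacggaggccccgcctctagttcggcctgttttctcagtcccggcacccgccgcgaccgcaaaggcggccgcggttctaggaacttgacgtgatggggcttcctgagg
The MMAB window holds 5 matches of CCAAT on both strands and the ALDH6A1 window holds 4. Of 35116 promoter windows of the same length, 34.6% hold at least 1 match, 0.991% hold 4 or more and 0.359% hold 5 or more. All 5 matches of MMAB also lie in the window of MVK (mevalonate kinase), which starts on the other strand and shares 211 of its 300 bases with that of MMAB. The downstream ACSS2 window holds no CCAAT and 3 GC boxes, and the upstream entry (chr20:34874739-34875038) holds 1 of each. At least 1 GC box is found in 45.0% of all windows. TCACNCCAC, the letters of the sterol regulatory element, is found in 1.13% of all windows and CACGTG, the E-box, in 7.26%, and neither is found in the windows of the 9 members with an entry. MMUT has 1 CCAAT, and the windows of ACSS1, PCCA, PCCB, MCEE and MMAA have none. These matches are letters in a window and do not show binding.

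Libraries held 14187401 to 43765330 reads counted on genes. The libraries of the 3 h and 24 h experiment differed more from each other than those of the 3 and 12 days experiment (the median gene's log2 fold change had a standard error of 0.20 against 0.13). SP 12 days replicate 3 stood apart from its group: its counts differed from those of replicates 1 and 2 with a chi-square per degree of freedom of 19.4 and 30.8, against 3.10 between these 2. In the other experiment Control 24 h replicate 3 differed from replicates 1 and 2 with 113 and 63.4, against 25.6 between these 2, and SP 3 h replicates 2 and 3 differed with 70.5. The values of the members at 12 days are given with and without SP 12 days replicate 3. The counts of the lists are given with all libraries, and again where leaving out SP 12 days replicate 3 or Control 24 h replicate 3 moved them by more than 1.5 times or ended a named call. Without Control 24 h replicate 3, ACSS2 (0.74, adjusted p = 0.00495), ALDH6A1 (0.80, adjusted p = 0.0224) and MMAB (-0.76, adjusted p = 0.00428) were called at 24 h and MMAA at 3 h (-0.98, adjusted p = 0.0163), as with all libraries, and no other member was called at these times by edgeR. That fit called 37.1% of all tested genes at 24 h and 12.4% at 3 h. All 8 epithelial and A549 markers were detected in each group. At 24 h, 3 days and 12 days 5 of them rose (KRT8, KRT18, KRT19, EPCAM and CDH1). The other 3 fell (AKR1B10, AKR1C1 and ALDH1A1). With all libraries, 28.8%, 48.6% and 49.8% of all tested genes were called either way at these times. Of 10 markers of fibroblasts, endothelium, blood cells and hepatocytes, CD3E was at 0 in all groups, and COL1A2, a collagen chain, had at most 1 read in a group. COL1A1, another collagen chain, made up 77.8% to 97.5% of the summed level. That sum was 176 to 602 normalised reads in Control 24 h, 490 to 1013 in SP 3 h and 1637 to 2378 in SP 24 h, and 305 to 308 in Control 3 days, 1050 to 1251 in SP 3 days and 552 to 956 in SP 12 days. Of these 10 markers 4 were expressed enough to be tested. COL1A1 and PDGFRB, a fibroblast marker, rose at 24 h. COL1A1 rose and CDH5, an endothelial marker, fell at 3 and 12 days. The part of these markers in the results below was not tested.

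Per kilobase of annotated exon, 8 of the 10 genes lay far above the other 2, from 64.4 to 161 in Control 3 days and from 61.4 to 213 in Control 24 h. In Control 3 days MMAB had the highest level, 161 ± 13.2 normalised reads per kilobase (SD, n = 3), above 73.1% of the tested genes. MMUT at 149.5 ± 13.1, ACSS2 at 143 ± 10.7 and PCCB at 142 ± 13.04 followed, and the libraries of these 4 genes overlapped. ALDH6A1 at 92.1 ± 1.24 lay below these 4 and above ACSS1 at 74.7 ± 3.79, PCCA at 72.9 ± 4.76 and MCEE at 64.4 ± 8.07, whose libraries again overlapped. MMAA was at 7.87 ± 1.23, above 16.6% of the tested genes. ACSS3 was the lowest at 2.06 ± 0.623, above 5.13% of them. In Control 24 h the order began with MMAB (213) and PCCB (196) and again ended with MMAA (9.34) and ACSS3 (0.814). With the length of the canonical transcript in place of all exons, PCCB came first in both controls, with 592 per kilobase in Control 3 days against 237 for MMAB, while MMAA and ACSS3 kept the last places. By that length the 8 upper genes ran from 113 to 592 in Control 3 days. The rank and the spread of the upper genes therefore depend on the length used.

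The same 3 of the 10 genes were called with SP at 24 h, 3 days and 12 days, beside 28.8%, 48.6% and 49.8% of all tested genes. At an adjusted p under 0.05 in edgeR's quasi-likelihood test, ACSS2 and ALDH6A1 rose and MMAB fell in SP 24 h, SP 3 days and SP 12 days, each against the control of its experiment. At 3 h MMAA alone was called, as lower. At 3 h 0 of 10 members rose and 1 fell, against 7.39% and 4.11% of all 17377 tested genes (11.5% either way). At 24 h 2 rose and 1 fell, against 16.8% and 12.0% (28.8% either way). At 3 days 2 rose and 1 fell, against 25.2% and 23.3% of 17775 tested genes (48.6% either way), and at 12 days again 2 rose and 1 fell, against 26.4% and 23.4% (49.8% either way). In a fit of Control 24 h and SP 24 h alone with the replicate number as a block, 38.3% of 17084 tested genes were called at 24 h, and again 3 members. The share of members called was 1 in 10 at 3 h and 3 in 10 at the later times. It was near that of all genes at 3 h and 24 h and below it at 3 and 12 days. All 10 genes passed the filter on low counts. The libraries of SP and control did not overlap for 4 members at 3 h, 4 at 24 h, 3 at 3 days and 4 at 12 days, against 27.3%, 44.4%, 61.2% and 55.9% of all tested genes. The median log2 fold change of the members was 0.01, -0.08, 0.03 and -0.03 in the same order, and that of all tested genes lay between -0.024 and 0.003. With all libraries no member passed the study's threshold when applied in edgeR, an adjusted p under 0.0001 with a fold change of at least 2. In edgeR 0.0%, 0.685%, 8.44% and 9.11% of all genes passed it in these 4 comparisons, 0.0288% between SP 24 h and SP 3 h and 0.18% between SP 12 days and SP 3 days. When SP 12 days replicate 3 was left out, ACSS2 passed it at 12 days (1.07, adjusted p = 2.75e-10), as did 11.0% of all genes. The study applied this threshold with DESeq2. In DESeq2 287 genes passed as higher and 114 as lower at 3 h, and 935 and 188 at 24 h. The DESeq2 counts were 1368 and 371 at 3 days and 1408 and 467 at 12 days. SP 3 h and SP 24 h share their control libraries, as do SP 3 days and SP 12 days.

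Among the synthetases, ACSS2, the enzyme of cytosol and nucleus that makes acetyl-CoA from acetate and also accepts propionate, rose. Its normalised read counts were 602, 676 and 676 in Control 24 h, 727, 868 and 699 in SP 3 h and 1093, 1147 and 969 in SP 24 h. They were 742, 697 and 808 in Control 3 days, 1189, 1070 and 1358 in SP 3 days and 1583, 1601 and 1155 in SP 12 days. Each SP library lay above each control library of its experiment, by a small margin at 3 h. The log2 fold change was 0.23 ± 0.12 (SE) at 3 h (adjusted p = 0.291) and 0.71 ± 0.12 at 24 h (adjusted p = 0.00282). It was 0.69 ± 0.12 at 3 days (adjusted p = 0.000346) and 0.95 ± 0.12 at 12 days (adjusted p = 1.65e-05), a 1.93-fold rise with a 95% interval from 1.60 to 2.32. Without SP 12 days replicate 3, the lowest of its group, the 12 days value was 1.07 (adjusted p = 2.75e-10).

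ACSS2 lies next to GGT7, a gamma-glutamyltransferase gene on the other strand whose annotated start overlaps that of ACSS2 in GENCODE, while in RefSeq the starts are 2133 bases apart. GGT7 rose as well, by 0.97 at 24 h (adjusted p = 0.0104), 0.67 at 3 days (adjusted p = 0.000471) and 0.36 at 12 days (adjusted p = 0.0292, and 0.17 with 0.149 without SP 12 days replicate 3), and had 0.31 at 3 h (adjusted p = 0.439). ACSS2 is a known target of the sterol-response factors SREBP. Of 12 other targets of these factors, 0 rose and 0 fell at 3 h, 2 rose (SCD, a fatty acid desaturase, by 0.73 with the smaller adjusted p) and 2 fell (MVK by 0.45 and SQLE by 0.37) at 24 h. At 3 days 7 rose and 0 fell, and at 12 days 11 rose and 0 fell, and FDFT1 (squalene synthase) had the smallest adjusted p in both, with 0.88 and 0.87. The list's median was 0.11 and -0.17 in the early pair of comparisons (3 h, then 24 h) and 0.46 and 0.64 in the late pair (3 days, then 12 days). Of all tested genes, 11.5% and 28.8% were called either way in the early pair and 48.6% and 49.8% in the late pair. Without Control 24 h replicate 3, 3 of the 12 genes rose and 4 fell at 24 h, against 37.1% of all genes called either way. The part of these factors in the change of ACSS2 was not tested.

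**Figure D1:**
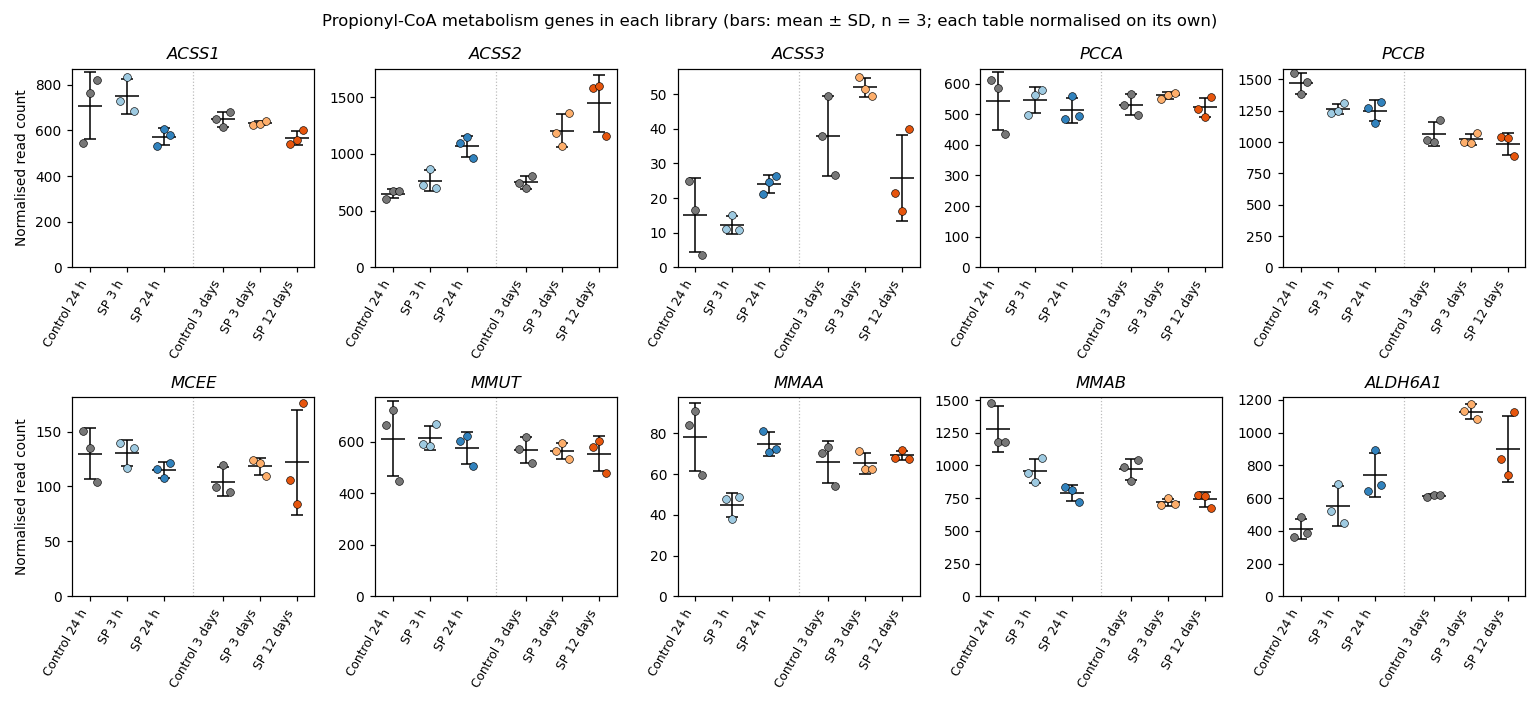
Normalised read count of each gene in each library (points), with mean ± SD (n = 3) per group, the 3 h and 24 h experiment left and the 3 and 12 days experiment right of the dotted line. ACSS2 and ALDH6A1 stand higher and MMAB lower in SP 24 h, SP 3 days and SP 12 days than in the control of their experiment, and MMAA is low in SP 3 h.

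ACSS1, the mitochondrial acetyl-CoA synthetase, was not called in any comparison with a control with all libraries and no correction for GC content and length. It had 544, 763 and 821 normalised reads in Control 24 h against 532, 606 and 582 in SP 24 h, and 648, 617 and 683 in Control 3 days against 542, 556 and 604 in SP 12 days. The ranges overlapped at 24 h and did not at 12 days. The log2 fold change was -0.31 at 24 h (95% interval -0.67 to 0.06, adjusted p = 0.18) and -0.19 at 12 days (-0.37 to -0.01, adjusted p = 0.069), and it was 0.08 at 3 h and -0.04 at 3 days. Without SP 12 days replicate 3 the 12 days value was -0.26 (adjusted p = 0.0119), and without Control 3 days replicate 2 it was -0.24 (adjusted p = 0.0468). At 24 h it was -0.49 (adjusted p = 0.0346) without Control 24 h replicate 1. With a trend over GC content and length removed it was lower both at 24 h (-0.47, adjusted p = 0.00614) and at 12 days (-0.24, adjusted p = 0.00812).

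ACSS3, the mitochondrial synthetase that prefers propionate, was near the limit of detection. It had 18, 12 and 4 raw reads in Control 24 h, 6, 18 and 10 in SP 3 h and 20, 42 and 30 in SP 24 h. It had 44, 44 and 25 in Control 3 days, 50, 47 and 46 in SP 3 days and 19, 18 and 50 in SP 12 days. The SP and control libraries overlapped in all 4 comparisons once scaled for depth. The log2 fold changes were -0.16 at 3 h, 0.77 at 24 h (95% interval -0.32 to 1.86, adjusted p = 0.26), 0.45 at 3 days and -0.52 at 12 days (-1.17 to 0.13, adjusted p = 0.175). A change of 2-fold either way lies within the interval at 3 h. Without SP 12 days replicate 3, which had the most reads of its group, the 12 days value was -1.04 (adjusted p = 0.00419). Exons of ACSS3 overlap those of PPFIA2 (1686 bases) and LIN7A (294 bases) on the other strand, and the strand used in counting is not stated. PPFIA2 had at most 2 reads in a library, while LIN7A fell by 1.67 at 12 days (adjusted p = 3.81e-05). MIR618, a microRNA gene 581 bases from its start, had 0 reads in all libraries.

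Of 10 other short- and medium-chain acyl-CoA synthetases, 4 were expressed enough to be tested. None was called at 3 h by edgeR, and at 24 h ACSF2 rose by 1.20. At 3 days ACSF2 (1.13) and AACS (0.31), the acetoacetyl-CoA synthetase, rose, and at 12 days both rose (0.77 and 0.48) while ACSM3 fell by 0.42. The list's medians lay between 0.14 and 0.34. Of 12 genes of the carnitine shuttle and of acyl-CoA thioesterases, which carry acyl groups between compartments or release them from CoA, 11 were tested. ACOT1 fell at 3 h by 0.79 and none rose, 3 rose and 2 fell at 24 h, 5 rose and 2 fell at 3 days, and 4 rose and 1 fell at 12 days. Of those that rose, the smallest adjusted p belonged to CPT1A, a carnitine palmitoyltransferase, at 24 h (1.13) and to the carnitine transporter SLC22A5 at 3 and 12 days (0.67 and 0.44), while CROT fell by 1.05 at 24 h and ACOT2 fell by 0.56 and 0.61 at 3 and 12 days. The medians were between 0.12 and 0.19. Beside the counts of both lists, 11.5%, 28.8%, 48.6% and 49.8% of all tested genes were called at the 4 times.

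PCCA and PCCB, the subunits of propionyl-CoA carboxylase, were not called in any comparison. These values are RNA. By western blot of A549 cells the study reported a relative rise of both proteins with SP, at later times only. PCCA had 436.5 to 612 normalised reads in Control 24 h, 499 to 579.7 in SP 3 h and 485 to 559 in SP 24 h, and 497 to 566 in Control 3 days, 550.1 to 569.8 in SP 3 days and 492 to 557 in SP 12 days. SP and control overlapped throughout. Its log2 fold change was 0.01 at 3 h, -0.08 at 24 h, 0.08 at 3 days and -0.02 at 12 days (-0.09 without SP 12 days replicate 3, adjusted p = 0.41). As folds, the 95% intervals ran from 0.927 to 1.21 at 3 days and from 0.863 to 1.12 at 12 days. PCCB had 1548, 1382 and 1481 normalised reads in Control 24 h, 1235, 1249 and 1312 in SP 3 h and 1274, 1156 and 1317 in SP 24 h. Its control libraries all lay above its SP libraries in this experiment, with a log2 fold change of -0.22 at 3 h (95% interval -0.43 to 0.00, adjusted p = 0.205) and -0.24 at 24 h (-0.45 to -0.02, adjusted p = 0.098). At 3 and 12 days the ranges overlapped and the values were -0.06 and -0.11, the latter -0.06 without SP 12 days replicate 3 (adjusted p = 0.586). PCCB shares 1661 bases of exon with STAG1, a cohesin gene on the other strand, which fell by 0.84 at 3 days and 0.83 at 12 days and had -0.28 at 3 h and -1.33 at 24 h (adjusted p = 0.0794), and PCCA shares 274 bases with GGACT, which rose by 0.83 at 24 h, 0.43 at 3 days and 0.34 at 12 days (0.22 without SP 12 days replicate 3, adjusted p = 0.117). PCCA-DT, a long RNA starting 43 bases from PCCA, had -0.50 at 24 h (adjusted p = 0.0844) and fell by 0.36 at 3 days.

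The carboxylase needs biotin. Of 8 genes of biotin handling and of the other biotin-dependent carboxylases, 0 changed at 3 h, 2 rose and 1 fell at 24 h, 4 rose and 3 fell at 3 days, and 3 rose and 3 fell at 12 days. Without Control 24 h replicate 3, 4 rose and 1 fell at 24 h, where that fit called 37.1% of all genes. With all libraries, 11.5%, 28.8%, 48.6% and 49.8% of all tested genes were called at the 4 times. Pyruvate carboxylase (PC) rose by 0.92 at 24 h and 0.77 at 3 days, and had 0.27 at 12 days (adjusted p = 0.0593). MCCC1, a methylcrotonyl-CoA carboxylase subunit, rose by 0.42 and 0.37 at 3 and 12 days. The vitamin transporter gene SLC5A6 fell by 0.62 at 24 h and HLCS, which attaches biotin to the carboxylases, fell by 0.38 at 3 days and 0.54 at 12 days. The list's median was -0.02, 0.29, 0.17 and 0.16.

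MCEE and MMUT, the epimerase and the mutase, were not called in any comparison with a control. MMUT had 665, 724 and 447.5 normalised reads in Control 24 h, 591, 586 and 670.1 in SP 3 h and 605, 623 and 507 in SP 24 h. In the other experiment it had 572, 618 and 518 in Control 3 days, 563, 596 and 535 in SP 3 days and 582, 604 and 478 in SP 12 days. The groups overlapped in all 4 comparisons, and the log2 fold changes were 0.01, -0.08, -0.01 and -0.04. The 95% intervals were -0.39 to 0.41 at 3 h and -0.48 to 0.32 at 24 h, and -0.24 to 0.21 and -0.26 to 0.18 at 3 and 12 days. The 12 days value of MMUT was 0.04 (adjusted p = 0.73) without SP 12 days replicate 3. With a trend over GC content and length removed and the replicate number as a block, MMUT was 0.28 at 24 h (adjusted p = 0.0481). MCEE had 104 to 151 normalised reads in Control 24 h, 117 to 139.9 in SP 3 h and 108 to 122 in SP 24 h, and its log2 fold changes were 0.01 and -0.17. At 3 and 12 days they were 0.18 (95% interval -0.30 to 0.66) and 0.24 (-0.23 to 0.71). MCEE had 106, 84.3 and 176 normalised reads in the 3 SP 12 days libraries, against 99.7, 119 and 94.5 in Control 3 days, and without replicate 3 its 12 days value was -0.16 (adjusted p = 0.406). CENPQ, a centromere gene starting 117 bases from MMUT, was not called, with values from -0.71 to -0.09. MPHOSPH10, starting 71 bases from MCEE, fell by 0.32 at 3 days and was not called at the other times, with -0.21, -0.55 and 0.01 at 3 h, 24 h and 12 days.

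MMAB, the adenosyltransferase that makes adenosylcobalamin, fell. Its normalised read counts were 1480, 1179 and 1179 in Control 24 h, 944.5, 873 and 1055 in SP 3 h and 836, 815 and 719 in SP 24 h. They were 986, 884 and 1041 in Control 3 days, 698, 750.2 and 709 in SP 3 days and 777, 769 and 678 in SP 12 days. Every SP library lay below every control library of its experiment. The log2 fold change was -0.42 ± 0.13 (SE) at 3 h (adjusted p = 0.0714), -0.69 ± 0.13 at 24 h (adjusted p = 0.00425), -0.43 ± 0.09 at 3 days (adjusted p = 0.000936) and -0.39 ± 0.09 at 12 days (adjusted p = 0.00196). The 12 days value was -0.35 (adjusted p = 0.00122) without SP 12 days replicate 3. The 24 h change was 1.62-fold. DESeq2 also called the 3 h value (-0.44, adjusted p = 0.0268). Exons of MMAB share 225 bases with MVK, the gene across the shared promoter. MVK fell by 0.45 at 24 h (adjusted p = 0.024), less than MMAB, and had -0.21 at 3 h, -0.01 at 3 days and -0.02 at 12 days, where MMAB was lower. The difference between the changes of these neighbours was not tested.

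MMAA, the GTPase that loads the cofactor onto the mutase, was called at 3 h and at no later time. It had 84.3, 91.0 and 59.5 normalised reads in Control 24 h, 47.9, 38.1 and 48.9 in SP 3 h and 81.3, 70.7 and 72.3 in SP 24 h. The 3 SP 3 h libraries lay below all others of the experiment, while SP 24 h and Control 24 h overlapped. The log2 fold change was -0.80 ± 0.21 (SE) at 3 h (adjusted p = 0.0417) and -0.06 at 24 h (95% interval -0.51 to 0.40). In the other experiment it was -0.02 and 0.07 at 3 and 12 days, and 0.07 at 12 days without SP 12 days replicate 3 as well (adjusted p = 0.774). The 3 h call rests on 26, 45 and 46 raw reads and was kept when Control 24 h replicate 3 was left out, but was lost when any 1 of the other 8 libraries was (adjusted p 0.0626 to 0.172). The fold change stayed between -0.98 and -0.68. Exons of MMAA share 123 bases with a long RNA on the other strand (ENSG00000248356).

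Of 9 other genes of cobalamin handling, 1 fell and 0 rose at 3 h, 1 rose and 1 fell at 24 h, 1 rose and 2 fell at 3 days, and 2 rose and 2 fell at 12 days. The gene that fell at 3 h was MMACHC, which processes cobalamin after uptake. It fell by 0.73 (adjusted p = 0.0361) and had 0.22 at 24 h, so that MMAA and MMACHC were both lower at 3 h and not called at 24 h. Without Control 24 h replicate 3 MMACHC was not called at 3 h (-0.71, adjusted p = 0.0641). TCN1, a cobalamin binding protein, rose by 1.62 at 24 h, and TCN2, the plasma carrier, rose by 0.28 at 3 days and 0.34 at 12 days. MMADHC, which steers cobalamin to mitochondria or cytosol, fell by 0.48 at 24 h and 0.31 at 3 days. MTRR, which keeps methionine synthase active, fell by 0.28 at 3 days and 0.32 at 12 days, where LMBRD1 rose by 0.28 and CD320, the receptor for the carrier, fell by 0.31. LMBRD1 was not called without SP 12 days replicate 3 (0.19, adjusted p = 0.123). The list's median was -0.14, -0.06, -0.02 and -0.09. The share of all tested genes called either way was 11.5%, 28.8%, 48.6% and 49.8% in the same order.

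ALDH6A1, which makes propionyl-CoA from valine and thymine, rose. Its normalised read counts were 363, 483 and 385 in Control 24 h, 523, 685 and 446 in SP 3 h and 645, 896 and 682 in SP 24 h. They were 606, 622 and 618 in Control 3 days, 1129, 1173 and 1083 in SP 3 days and 837.5, 741 and 1128 in SP 12 days. Control and SP overlapped at 3 h and did not at 24 h, 3 days or 12 days. The log2 fold change was 0.43 ± 0.20 (SE) at 3 h (adjusted p = 0.216), 0.85 ± 0.20 at 24 h (adjusted p = 0.0114), 0.87 ± 0.12 at 3 days (adjusted p = 3.06e-05) and 0.55 ± 0.12 at 12 days (adjusted p = 0.00155). At 3 days this was 1.83-fold, with a 95% interval from 1.53 to 2.20. Without SP 24 h replicate 2, its highest library, the 24 h value was 0.70 (adjusted p = 0.0529), and without SP 12 days replicate 3 the 12 days value was 0.34 (adjusted p = 0.00149). LIN52, whose start lies 464 bases from that of ALDH6A1 in GENCODE, was not called, with -0.33, -0.38, 0.06 and -0.01 at the 4 times, and BBOF1, which shares 670 bases of exon with it on the other strand, was not called either (0.50, -0.12, 0.27 and 0.18).

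Branched-chain amino acids feed valine carbon to ALDH6A1. Of 18 other genes of their breakdown, 1 rose and 0 fell at 3 h, 4 rose and 2 fell at 24 h, 9 rose and 1 fell at 3 days, and 12 rose and 3 fell at 12 days. The list's median was 0.02, 0.00, 0.20 and 0.30. At the same times 11.5%, 28.8%, 48.6% and 49.8% of all tested genes were called either way. PPM1K, the phosphatase that activates the branched-chain keto acid dehydrogenase, rose by 1.74 at 3 h, 1.16 at 24 h, 2.02 at 3 days and 2.05 at 12 days. BCKDK, the kinase that opposes it, rose by 0.51 at 24 h, 0.75 at 3 days and 0.61 at 12 days, while BCAT1, the cytosolic transaminase of the first step, fell by 2.05 at 3 days and 1.64 at 12 days, and IVD of the leucine branch fell by 0.46 at 24 h. Of 9 genes that lead to propionyl-CoA or its relatives through 2-oxobutyrate, uracil or beta-alanine, 6 were tested. ABAT, the aminotransferase of GABA, beta-alanine and beta-aminoisobutyrate, rose by 2.82 at 24 h, 3.59 at 3 days and 4.04 at 12 days. DPYD, the first enzyme of pyrimidine breakdown, rose by 1.15 and 1.08 at 3 and 12 days, and CBS, of the methionine route, fell by 0.88 and 0.75. No gene of this list changed at 3 h, and its median was 0.13, 0.59, 0.31 and 0.24.

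Downstream of MMUT, 16 genes of succinyl-CoA metabolism and the tricarboxylic acid cycle were tested. At 3 h 0 changed, at 24 h 5 fell and 0 rose, at 3 days 3 rose and 2 fell, and at 12 days 1 rose and 3 fell. When SP 12 days replicate 3 was left out, 7 rose and 3 fell at 3 days and 5 rose and 3 fell at 12 days. That fit called 57.6% and 54.9% of all genes at these times. With all libraries the shares were 11.5%, 28.8%, 48.6% and 49.8% at the 4 times. IDH3A and IDH3B, subunits of isocitrate dehydrogenase, fell by 0.66 and 0.63 at 24 h, and IDH3B fell by 0.43 and 0.42 at 3 and 12 days. SUCLG2, a subunit of the enzyme that uses succinyl-CoA, fell by 0.51 at 24 h, and DLST rose by 0.43 at 3 days and 0.35 at 12 days. The median was -0.07, -0.27, 0.10 and 0.05. Of 10 mitochondrial genes outside these pathways, used as a reference, 0 changed at 3 h, 2 fell at 24 h (HSPD1 by 0.67 and TIMM23 by 0.47), 3 fell at 3 days, and 1 rose (CYCS by 0.37) and 1 fell (LONP1 by 0.37) at 12 days. LONP1 fell by 0.40 at 3 days, and the medians were -0.07, -0.32, -0.20 and -0.04. Without Control 24 h replicate 3, 4 of these 10 fell at 24 h, and without SP 12 days replicate 3, 5 fell at 3 days. These fits called 37.1% and 57.6% of all genes at these times.

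**Figure D2:**
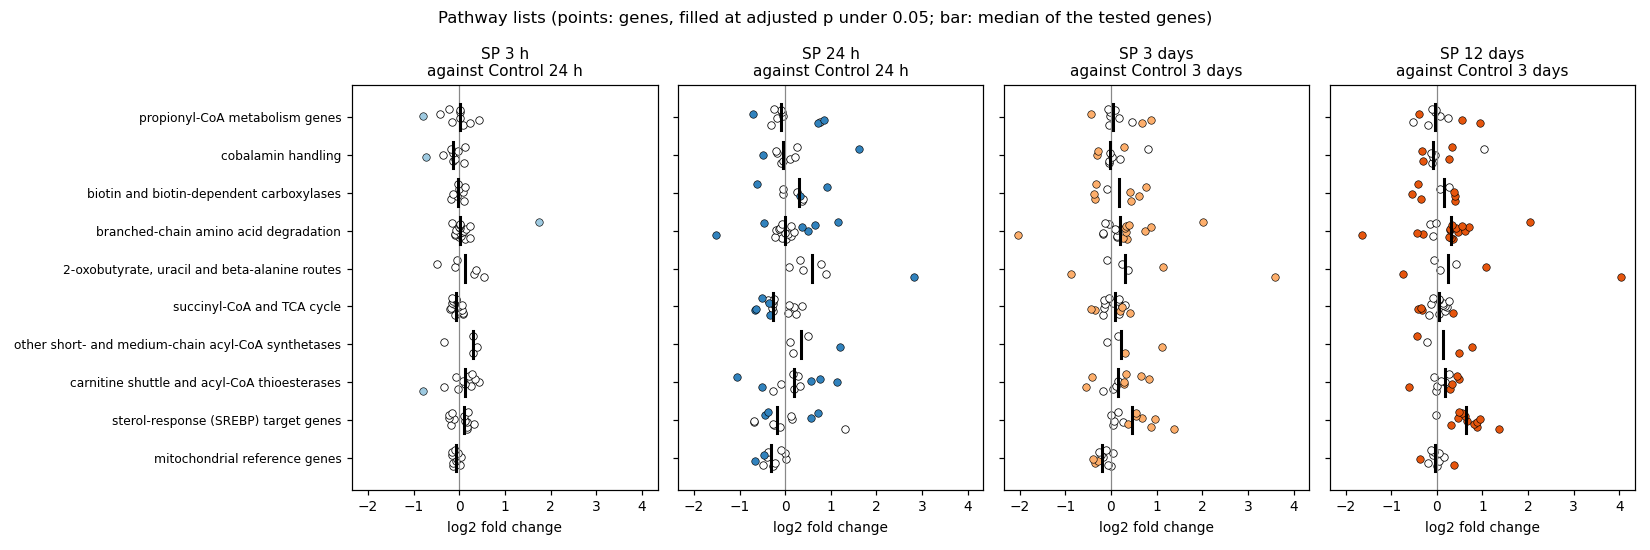
Log2 fold change of the genes of each list in the 4 comparisons with a control (points are genes, filled at an adjusted p under 0.05, bars are medians over the tested genes). The 10 propionyl-CoA metabolism genes spread to both sides of 0, the 12 sterol-response targets lie mostly above 0 at 3 and 12 days, and ABAT is the point at 4.04 at 12 days.

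Between the SP groups of one experiment, ACSS2 and MMAA were higher at 24 h than at 3 h. SP 24 h against SP 3 h gave 0.48 ± 0.12 for ACSS2 (adjusted p = 0.024) and 0.74 ± 0.21 for MMAA (adjusted p = 0.0359), so 2 of 10 members rose and 0 fell, against 11.7% and 8.4% of all tested genes (20.1% either way). The libraries of these times did not overlap for either gene, nor for 3 other members (ACSS1, ACSS3 and MMAB), against 44.9% of all tested genes. MMAB had -0.28 (95% interval -0.57 to 0.02) and ALDH6A1 had 0.43 (-0.01 to 0.87). Between SP 12 days and SP 3 days no member was called by edgeR, against 8.1% of all tested genes (4.46% higher and 3.65% lower), while 3 members had an unadjusted p under 0.05 and DESeq2 called 1 (ACSS3). ACSS2 had 0.26 (95% interval 0.00 to 0.52), ALDH6A1 had -0.32 (-0.58 to -0.06), ACSS3 had -0.97 (-1.61 to -0.34) and MMAB had 0.04 (-0.15 to 0.24). Without SP 12 days replicate 3, 3 members were called: ACSS2 rose by 0.39 (adjusted p = 0.00159), ALDH6A1 fell by 0.53 (adjusted p = 3.77e-05) and ACSS3 fell by 1.49 (adjusted p = 0.000289). That fit called 28.1% of all tested genes. Whether these 3 genes were called therefore depended on SP 12 days replicate 3, and for ACSS3 and ALDH6A1 also on the fit. With all libraries, edgeR called ACSS3 without a filter (adjusted p = 0.00613) and with the GC and length trend removed (adjusted p = 0.0372). It called ALDH6A1 without a filter (adjusted p = 0.036), while ACSS2 was called in 0 of 8 other fits. With all libraries, the groups did not overlap for 2 members (ACSS1 and ACSS3), against 26.8% of all tested genes.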

How the data were processed

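RNA-seq of 18 A549 libraries was taken from 2 deposited tables of raw counts per Ensembl gene. Per the methods and the submitters' processing notes, the authors prepared paired-end libraries with a NEBNext Ultra kit, aligned them to GRCh38 with STAR (2.7.9a) and counted them with featureCounts, and their own comparisons used DESeq2 1.36.0 in R 4.2.1. Strand and multi-mapping settings are not given in the sources used here. The 3 libraries of a group are called biological replicates for part of the series, so p-values measure the spread between these libraries.

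Tests were run with edgeR 4.0.16 under R 4.3.3 (filterByExpr, minimum count 10, TMM, robust quasi-likelihood test on all 9 libraries of a table with a group term). The Benjamini-Hochberg adjustment ran over the 17377 or 17775 genes tested, and calls needed an adjusted p below 0.05. Normalised counts are scaled to the mean library of a table, and levels are compared only within a table. Lengths and overlaps come from GENCODE v44, promoters from RefSeq. DESeq2 1.42.0, RLE factors, no filter, fits of the compared groups, a replicate block, removal of a GC and length trend (mgcv 1.9.3) and leaving out each library were alternatives. On simulated counts 69.4% of genes changed 1.5-fold were called at 12 days and 4% at 24 h, and 77.6% and 44.9% of those changed 2-fold. There 17202 of 17398 genes were left unchanged at 12 days and 16808 of 17007 at 24 h, while 49.8% and 28.8% of real genes were called. The adjustment was thus stricter on simulated counts, so these shares can understate detection in the data.

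The members and the 9 lists were chosen with earlier results of these data known. All members are named. Of each list, the gene that rose and the gene that fell with the smallest adjusted p in each comparison with a control are named, and others only where 5 or fewer changed or where a head-to-head neighbour within 1000 bases or an exon overlap was described. Same-numbered libraries of Control 24 h and SP 24 h deviated together (r = 0.499, 0.17 and 0.504 for numbers 1, 2 and 3, and 0.373, 0.219 and 0.354 after the GC and length trend was removed). Differently numbered pairs were as high as number 2, with 0.175 for SP 24 h 2 and Control 24 h 3 and 0.162 for SP 24 h 1 and Control 24 h 2. These 2 values were 0.113 and 0.0376 after the trend was removed. SP 3 h 3 had 0.576 with Control 24 h 1 and -0.592 with Control 24 h 3. Replicate numbers may pair Control 24 h and SP 24 h, which these values do not settle, and they entered as a block in alternative fits only. All printed 24 h values come from the fit without the block, so their standard errors, intervals, adjusted p-values and list counts do not use this pairing. No call of a member at 24 h changed with the block alone. For the other comparisons no pairing was assumed. ACSS3 has no promoter entry in the table used.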

Additional observations from a re-analysis of the deposited data

Results flagged for a closer look

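2 results drew a closer look because the change from the shared Control 24 h differed between SP 3 h and SP 24 h by a direct test between these groups in edgeR. ACSS2 differed by 0.483 (log2, adjusted p = 0.024), and was higher at 24 h in all 3 libraries. The call was kept in 8 of 8 other fits and in 5 of 9 fits with 1 library left out, with an adjusted p between 0.0064 and 0.0948. It was lost without SP 3 h replicate 1 or 3 or SP 24 h replicate 1 or 2 (0.44, 0.42, 0.46 and 0.43). MMAA differed by 0.741 (adjusted p = 0.0359), with 26, 45 and 46 raw reads in SP 3 h and 77, 121 and 82 in SP 24 h. Its call was kept in 6 of 8 other fits and in 3 of 9 fits with 1 library left out, with an adjusted p between 0.00217 and 0.113, and was lost whenever any SP 3 h or SP 24 h library was left out (0.62 to 0.81). Depth differed between these groups, with 14187401 to 30553986 reads in SP 3 h and 24831674 to 43765330 in SP 24 h, and its part was not tested.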

How the results depend on the processing

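ACSS2, ALDH6A1 and MMAB at 24 h, 3 days and 12 days were called in 8 of 8 other fits, and with 1 library left out in 9 of 9, save ALDH6A1 at 24 h (8 of 9). At the study's threshold (adjusted p under 0.0001, fold of at least 2), applied in edgeR, 0 members were called in SP 3 h, SP 24 h, SP 3 days and SP 12 days against control and in SP 24 h against SP 3 h, and with 1 library left out this changed only without SP 12 days replicate 3, with 1 member (ACSS2) at 12 days. The count of called members at 3 h, 1 as reported, was 2 with DESeq2 (MMAB added). It was 0 without a filter, with only the 2 groups, with these and a replicate block, and with a replicate block alone. DESeq2 called 1472 of 36979 genes as higher and 1066 as lower, and the fit without a filter 1339 and 669. With only the 2 groups, 624 of 16151 genes rose and 349 fell. With the block added to these, 0.0% of all genes were called, so that fit cannot set the members apart from other genes. The block alone called 11.0% of all genes. At 24 h, 3 as reported, the count was 5 with the GC and length trend removed and a replicate block (ACSS1 at -0.47 and MMUT added). That fit called 37.0% of all genes, and the block alone left the count at 3. For SP 24 h against SP 3 h, 2 as reported, the count was 1 without a filter, where 2197 of 36979 genes rose and 1218 fell. It was 4 with the GC and length trend removed and a replicate block (29.2% of all genes called). The block alone ended the call of MMAA (0.73, adjusted p = 0.0521) and gave one of ALDH6A1 (0.43, adjusted p = 0.0353). For SP 12 days against SP 3 days, 0 as reported, the count was 1 with DESeq2 and 2 without a filter (ACSS3 and ALDH6A1). It was 1 with the GC and length trend removed. In this order the fits called 788, 1147 and 953 genes as higher and 780, 893 and 678 as lower. Removing the GC and length trend also added a call of ACSS1 at 12 days (-0.24, adjusted p = 0.00812, and 0.0138 with a replicate block). With 1 library left out the counts ranged from 0 to 1 (3 h), 2 to 4 (24 h), 0 to 3 (24 h against 3 h), 3 to 3 (3 days), 3 to 5 (12 days) and 0 to 3 (12 against 3 days). Without SP 12 days replicate 3 the last were 5 and 3, against 54.9% and 28.1% of all genes. Called list genes numbered 3 at 3 h and 5 with the GC and length trend removed, and for SP 12 days against SP 3 days 5, 8 with DESeq2 and 3 with RLE factors. Removing the GC and length trend turned MMUT to 0.277 at 24 h, 0.198 in SP 24 h against SP 3 h and 0.099 at 3 days (with a replicate block 0.275, 0.196 and 0.099) and MMAA to 0.266 at 24 h (0.266 with the block). With 1 library left out, signs turned for ACSS1 at 3 h (-0.097 to 0.199), ACSS3 at 3 h (-0.713 to 0.429), MMUT at 3 h (-0.175 to 0.146), and MCEE at 12 days (-0.163 to 0.439) and in SP 12 days against SP 3 days (-0.342 to 0.263). Of 62 sign changes, 49 lay within 1 standard error and 0 concerned a called value. The cause of these shifts was not tested. ACSS3 had 4 to 50 raw reads in a library, so 1 library can move its value widely.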
